A study of Mus musculus with 40 samples.

Results

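The spinal cord comparison described here set the MPTP-SU+T group against the MPTP-SU group, with 4 libraries in each, and so 8 of the 40 libraries of the series. The libraries were chosen by their labels alone. Male C57BL/6N mice, 8 weeks old, received MPTP, a toxin of dopaminergic neurons, at 20 mg/kg in 4 injections, and both groups were then given 4 injections of SUEHP at the GB34 acupoint. SUEHP is a pharmacopuncture, a herbal preparation with deer antler extract that is injected at acupoints. MPTP-SU+T mice additionally received T0070907, an inhibitor of PPARγ, at 5 mg/kg by intraperitoneal injection. All 8 libraries therefore shared MPTP and SUEHP, and differed by the inhibitor. The MPTP-Veh group, which had MPTP and saline at the acupoint (4 libraries), and the same pair of groups in the midbrain (8 libraries) served as references. Values of the remaining cord groups, Con and MPTP-SU+S (4 libraries each), are given in places. Con mice received saline in place of MPTP and saline at the acupoint, without SUEHP. MPTP-SU+S mice received MPTP, SUEHP and, at 3 mg/kg by intraperitoneal injection, an antagonist of the cannabinoid receptor CB1. The text of the methods does not say that MPTP-SU mice were injected with the solvent of the inhibitor, so the inhibitor, its solvent and the additional injection cannot be told apart. MPTP given this way is an acute model, and each library is bulk tissue of a cord segment that the labels do not name.

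PPARγ is a nuclear receptor that binds DNA as a partner of the retinoid X receptors and turns on genes of lipid storage and fatty acid use. In microglia and astrocytes its ligands are known to lower inflammatory gene expression, which is why the receptor is studied in pain of the spinal cord. T0070907 occupies the ligand pocket and favours the binding of corepressors over coactivators, so its action falls on the receptor protein and not on the mRNA of the receptor. The question of the comparison was whether the inhibitor undid the transcriptional changes that came with SUEHP.

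The 8 libraries held 15328246 to 16615378 counts, and 16682 of 40213 gene symbols passed the filter on low counts. MPTP-SU+T replicate 1 stood apart. Its share of the long noncoding RNA Gm26917 was 11% of counts (95% Wilson interval 10.98% to 11.01%), whereas the other 3 libraries of its group held 0.693% to 0.843% and the MPTP-SU libraries held 0.759% to 1.19%. In the Con group, 2 libraries also held high shares, of 3.34% and 8.04%. The tissue label was borne out by the markers, with Chat of cholinergic neurons at 20.4 to 25.1 CPM and Hoxb8, a gene of trunk levels, at 171 to 192 CPM over the 8 libraries. CPM values are counts scaled to library size with TMM factors.

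Few genes passed the threshold when T0070907 was added. Differentially expressed genes (DEGs), taken as genes past 1.5-fold whose adjusted p-value was under 0.05, numbered 4 of 16682 (0.0240%). Dbp and Scara3 rose, and Calca and ATP8 fell. With the adjusted p-value alone, 6 genes passed (0.0360%), the further genes being Kif21b, which rose, and ND2, which fell. All 6 had groups that did not overlap, which adds no support, because they were picked by p-value in these same libraries. Of all tested genes, 3.94% were entirely higher and 4.10% entirely lower in MPTP-SU+T.

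**Figure D1:**
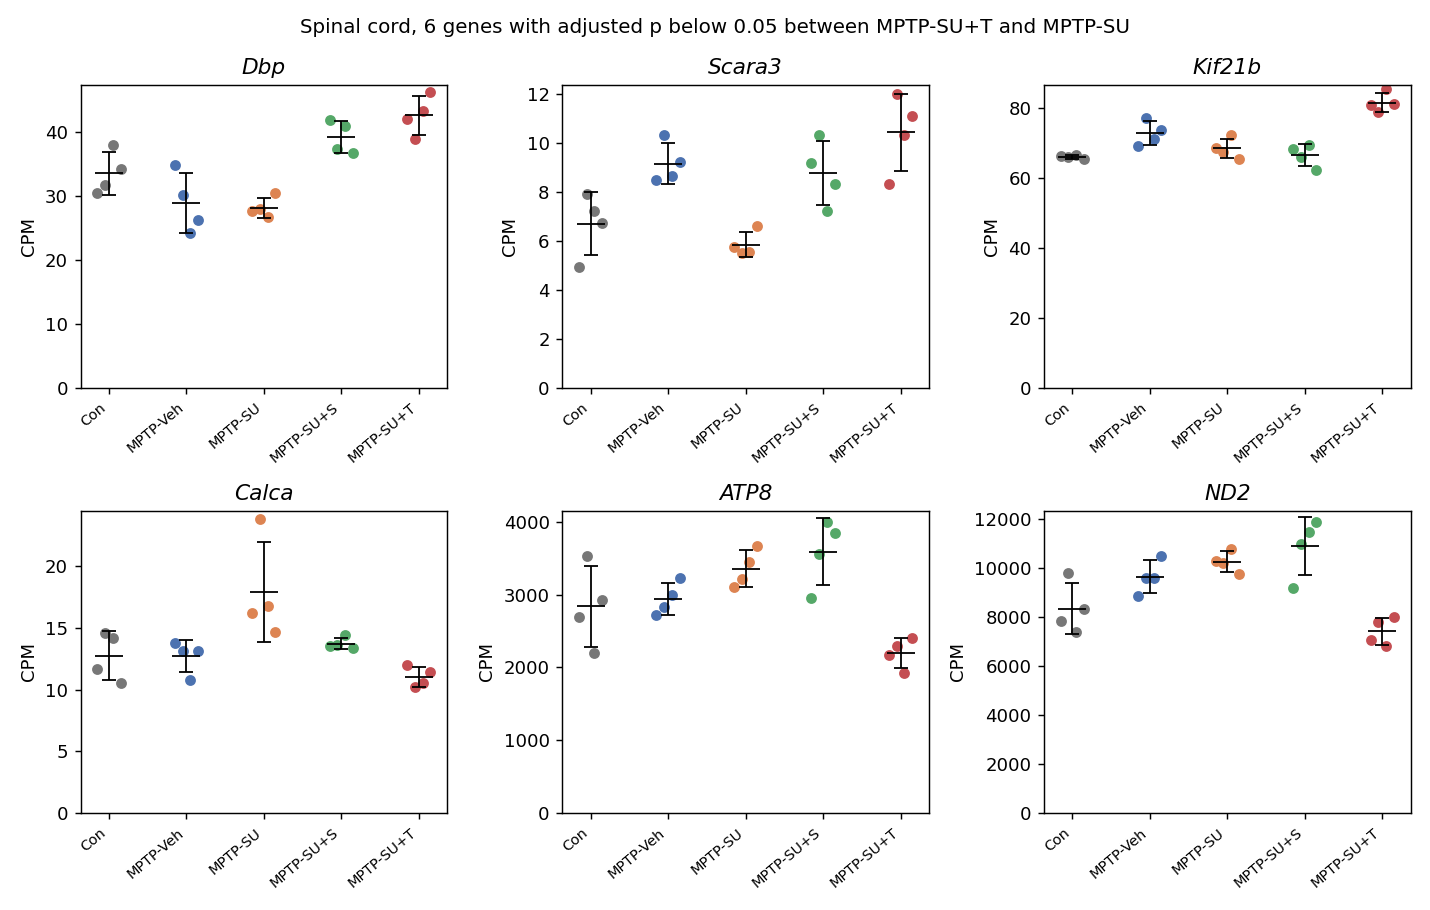
CPM of the 6 genes with an adjusted p-value below 0.05, by library (points) in the 5 spinal cord groups, with the mean (bar) and SD (whiskers, n = 4). In each panel the 4 MPTP-SU+T points and the 4 MPTP-SU points do not overlap. Dbp in MPTP-SU+T sits between 38.9 and 46.3 CPM, above every MPTP-Veh library, whereas Scara3 and Calca in MPTP-SU+T lie near the MPTP-Veh libraries.

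At an unadjusted p-value below 0.05, 1012 genes were higher (6.07%) and 1003 were lower (6.01%) in MPTP-SU+T. Together these 2015 genes were 12.1% of those tested. Most of these differences were small, with 114 of the higher and 99 of the lower genes beyond 1.5-fold. The 95% interval of the fold change lay wholly within 1.5-fold in either direction for 12785 genes (76.6%), and the median log2 fold change over all tested genes was 0.0068. Differences beyond that size were therefore bounded for most tested genes.

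**Figure D2:**
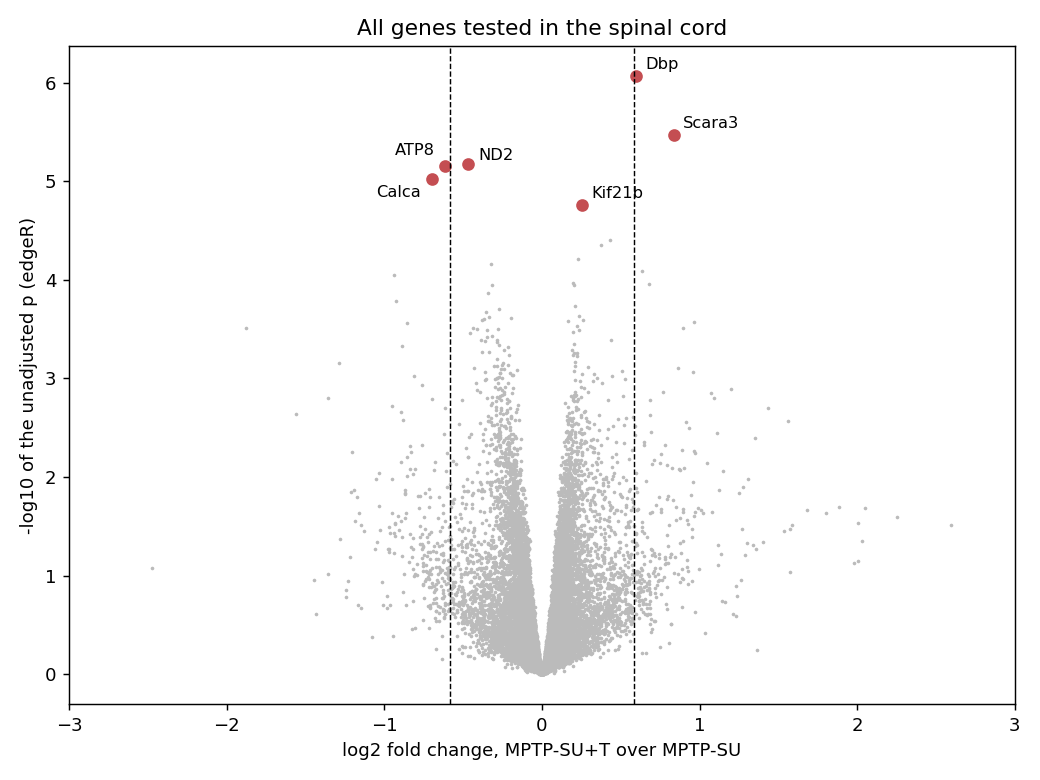
Log2 fold change of MPTP-SU+T over MPTP-SU (x axis) against −log10 of the unadjusted p-value from edgeR (y axis) for the tested genes, with dashed lines at 1.5-fold. The 6 genes with an adjusted p-value below 0.05 are named, and 13 genes with a log2 fold change beyond the axis are not drawn.

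Dbp encodes a PAR bZIP transcription factor that is an output of the circadian clock and drives rhythmic genes of metabolism. It stood at 42.0, 38.9, 43.3 and 46.3 CPM in the MPTP-SU+T libraries and at 27.6, 27.9, 26.7 and 30.4 CPM in the MPTP-SU libraries. Every inhibitor library was above every SUEHP library, and the log2 fold change was 0.60 ± 0.09 (SE; 1.51-fold, adjusted p = 0.0142). The exact permutation p was 0.0286, the smallest that 4 against 4 allows. It adds no support, because Dbp was picked from these same libraries. The MPTP-Veh libraries held 34.8, 30.2, 24.2 and 26.3 CPM, and Dbp was the only gene with an adjusted p-value below 0.05 between MPTP-SU+T and MPTP-Veh (1 of 16682, 0.00599%; log2 fold change 0.56 ± 0.09 SE, adjusted p = 0.0388). That comparison shares the MPTP-SU+T libraries from which Dbp was picked, so it is not independent.

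The mammalian clock is a loop in which CLOCK and BMAL1 activate the Per and Cry repressors, the nuclear receptors REV-ERB and the PAR bZIP factors through E-box elements. Of 21 tested clock genes, 7 were higher (33.3%, beside 6.07% of all tested genes) and 2 were lower (9.52%, beside 6.01%) at an unadjusted p-value below 0.05, and 1 (Dbp) passed the adjusted threshold. The median log2 fold change of the list was 0.12, beside 0.0068 for all genes. Nr1d1, which encodes REV-ERBα, was at 84.8, 86.8, 94.6 and 93.5 CPM with the inhibitor and at 74.9, 58.7, 64.5 and 68.1 CPM without it. The groups did not overlap, but the adjusted p-value was 0.0930 (log2 fold change 0.43 ± 0.09 SE). Per1, a repressor that also responds acutely to cell signals, was at 28.9, 34.6, 39.3 and 36.1 CPM against 22.5, 27.0, 27.8 and 25.1 CPM. The groups did not overlap, at a difference of 0.44 ± 0.12 on the log2 scale (SE, adjusted p = 0.174). Tef, a relative of Dbp, differed by 0.20 ± 0.05 on the log2 scale (SE, adjusted p = 0.154), and its 141, 138, 149 and 152 CPM were all above the MPTP-SU libraries at 126, 127, 119 and 130 CPM.

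The remaining clock members below an unadjusted p-value of 0.05 were Per3 (log2 fold change 0.29 ± 0.09 SE), Cry2 (0.17 ± 0.06 SE) and Ciart (0.32 ± 0.13 SE) on the higher side. On the lower side were Bmal1 (−0.21 ± 0.08 SE) and Npas2 (−0.21 ± 0.09 SE), which encode activators of the loop. Cry1 (0.02 ± 0.08 SE) had a 95% interval of −0.14 to 0.17. The summed CPM of the list were 1080 to 1100 in MPTP-SU+T and 969 to 1020 in MPTP-SU. The hour of tissue collection is not given in the sources used here.

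Promoters of the 4 clock members with the smallest p-values are shown because the E-box CACGTG, a palindrome that reads alike on both strands, is the element through which the loop acts. Windows came from RefSeq (GRCm38.p6, 250 bases before to 50 after the start) and were matched by symbol for 17 of the 21 tested clock genes. The element was present in 5 of these 17 genes, among them Tef and Per1, and in 7.15% of all 32851 windows (8.09% of symbols). The match is in capitals, and the Dbp and Nr1d1 windows hold none, which says only that these letters are not in these windows. The windows are chr7:45704997-45705296 for Dbp, chr15:81802423-81802722 for Tef and chr11:69098699-69098998 for Per1 on the plus strand, and chr11:98775328-98775627 for Nr1d1 on the minus strand.
Dbp: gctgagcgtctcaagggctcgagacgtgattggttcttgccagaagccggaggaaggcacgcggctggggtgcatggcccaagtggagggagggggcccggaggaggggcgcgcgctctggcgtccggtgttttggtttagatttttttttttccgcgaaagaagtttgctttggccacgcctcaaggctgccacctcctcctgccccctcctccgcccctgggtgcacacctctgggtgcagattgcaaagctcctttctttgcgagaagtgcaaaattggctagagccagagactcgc
Nr1d1: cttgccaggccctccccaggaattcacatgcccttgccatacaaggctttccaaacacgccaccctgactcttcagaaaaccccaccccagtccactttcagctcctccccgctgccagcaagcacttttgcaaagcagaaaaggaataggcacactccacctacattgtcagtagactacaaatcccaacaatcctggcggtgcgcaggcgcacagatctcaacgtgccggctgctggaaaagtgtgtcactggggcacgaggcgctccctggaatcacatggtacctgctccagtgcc
Tef: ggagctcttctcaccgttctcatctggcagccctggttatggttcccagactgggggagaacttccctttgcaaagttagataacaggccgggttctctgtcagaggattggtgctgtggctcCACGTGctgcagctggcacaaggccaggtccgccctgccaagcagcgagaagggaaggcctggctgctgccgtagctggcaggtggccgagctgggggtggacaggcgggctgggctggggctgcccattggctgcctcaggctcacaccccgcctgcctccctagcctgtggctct
Per1: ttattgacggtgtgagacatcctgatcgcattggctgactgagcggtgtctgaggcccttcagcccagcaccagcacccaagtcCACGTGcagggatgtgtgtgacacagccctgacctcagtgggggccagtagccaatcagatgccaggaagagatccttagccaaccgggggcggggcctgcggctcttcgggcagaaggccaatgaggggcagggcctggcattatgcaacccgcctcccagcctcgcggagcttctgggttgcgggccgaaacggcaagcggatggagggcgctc

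Scara3 encodes a scavenger receptor-like protein induced by oxidative stress. It was at 8.30, 12.0, 10.3 and 11.1 CPM in MPTP-SU+T and at 5.74, 5.51, 5.52 and 6.58 CPM in MPTP-SU. The lowest library with the inhibitor exceeded the highest without it, and the log2 fold change was 0.84 ± 0.14 (SE; 1.79-fold, adjusted p = 0.0286). MPTP-Veh libraries lay at 8.46, 10.3, 8.64 and 9.19 CPM, so the log2 difference of MPTP-SU+T from MPTP-Veh was 0.19 ± 0.13 (SE, adjusted p = 0.591).

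Calca encodes CGRP, a peptide of nociceptive afferents and motor neurons, together with calcitonin. It was at 12.0, 10.2, 10.5 and 11.4 CPM with the inhibitor and at 16.2, 23.8, 16.8 and 14.7 CPM without it. The 4 inhibitor libraries lay below all MPTP-SU libraries, of which replicate 2 was the highest (log2 fold change −0.70 ± 0.12 SE, 1.62-fold lower, adjusted p = 0.0313). MPTP-Veh libraries held 13.8, 13.1, 10.8 and 13.1 CPM, a log2 difference of −0.21 ± 0.13 (SE, adjusted p = 0.532) for MPTP-SU+T. MPTP-SU itself differed from MPTP-Veh by 0.49 ± 0.12 (SE) for Calca and by −0.65 ± 0.14 (SE) for Scara3, with an adjusted p-value of 0.999 for each in edgeR. DESeq2 gave no adjusted p-value for Scara3 or Calca, so that its 4 DEGs were Dbp, ATP8, Aebp1 and Ptgds, and limma-voom called Dbp, Scara3 and ATP8 but not Calca. The comparisons with MPTP-Veh share the MPTP-Veh libraries with each other. Each also shares the MPTP-SU+T or the MPTP-SU libraries with the comparison of MPTP-SU+T and MPTP-SU, so none is independent of the others.

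Kif21b, a neuronal kinesin motor, stood at 80.8, 78.9, 85.4 and 81.0 CPM against 68.6, 67.3, 72.1 and 65.5 CPM. The difference was 1.19-fold (log2 fold change 0.25 ± 0.05 SE, adjusted p = 0.0489), and the 95% interval of 0.16 to 0.35 lay under 1.5-fold.

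The mitochondrial genome encodes 13 subunits of the respiratory chain and ATP synthase. All 13 genes had negative log2 fold changes (median −0.34, range −0.61 to −0.08), 12 of them at an unadjusted p-value below 0.05 (92.3%, beside 6.01% of all tested genes), and ATP8 and ND2 passed the adjusted threshold. Together they took 11%, 13.6%, 12.2% and 13.5% of counts with the inhibitor and 15.6%, 15.1%, 16.5% and 15.8% without it. The groups did not overlap, and MPTP-Veh libraries held 14.3% to 16.4%. Con libraries held 12.4% to 14.2%, which overlaps MPTP-SU+T.

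ATP8, a small subunit of ATP synthase, was at 2170, 2290, 1920 and 2400 CPM against 3100, 3210, 3450 and 3660 CPM (log2 fold change −0.61 ± 0.11 SE, 1.53-fold lower, adjusted p = 0.0291). ND2, a subunit of complex I, was at 7090, 7790, 6840 and 8000 CPM against 10300, 10200, 10800 and 9780 CPM (−0.47 ± 0.08 SE, adjusted p = 0.0291). Both were lowest in MPTP-SU+T replicate 3. ATP8 shares bases with ATP6 on the same transcript, so its counts depend on how reads were split, and ATP6 differed by −0.37 ± 0.09 (SE, adjusted p = 0.143). COX1, the catalytic subunit of complex IV, was at 27100, 31900, 29900 and 32700 CPM against 35700, 33300, 37800 and 37000 CPM (−0.24 ± 0.08 SE, adjusted p = 0.249). ND6, which is read from the other strand, did not separate (−0.08 ± 0.12 SE, 95% interval −0.33 to 0.17). The tRNA TrnL1 was also lower in every inhibitor library (−0.86 ± 0.20 SE, adjusted p = 0.143).

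The base composition of transcripts moved with the contrast. Across the 15345 tested genes with a transcript in GENCODE (92%), log2 fold changes were larger at higher GC content, with a Spearman correlation of 0.45 across genes, which are not independent replicates. The median was −0.12 in the lowest decile of GC content and 0.10 in the highest, whereas the correlation with length was 0.00555. Genes lower at an unadjusted p-value below 0.05 had a median GC content of 42.4% and those higher 55.2%. By library, the correlation of the deviation from the mean with GC content was 0.159, 0.148, 0.459 and 0.432 in MPTP-SU+T and −0.269, −0.0729, −0.165 and 0.107 in MPTP-SU, so these groups did not overlap. Libraries of a single group could differ as much, from −0.453 to 0.41 in Con.

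The mitochondrial list is low in GC content (median 37.1%), and Dbp (61.6%) is high. With a smooth trend on GC content and length taken out of each library, an alternative chosen after seeing the data, Dbp was the gene that kept an adjusted p-value below 0.05 (log2 fold change 0.53, adjusted p = 0.0141), at less than 1.5-fold, and no DEG was left. The log2 fold change of ATP8 moved from −0.61 to −0.24 (adjusted p = 0.645) and that of ND2 from −0.47 to −0.24 (adjusted p = 0.32), and the median of the mitochondrial list moved to −0.14. Scara3 (0.75) and Calca (−0.66) kept most of their size, each with an adjusted p-value of 0.101, and Kif21b was at 0.15 (adjusted p = 0.429). Nr1d1 was at 0.35 (adjusted p = 0.215) and Per1 at 0.33 (adjusted p = 0.293), and the median of the clock list was 0.08. A total of 1366 genes lay below an unadjusted p-value of 0.05 in that fit.

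**Figure D3:**
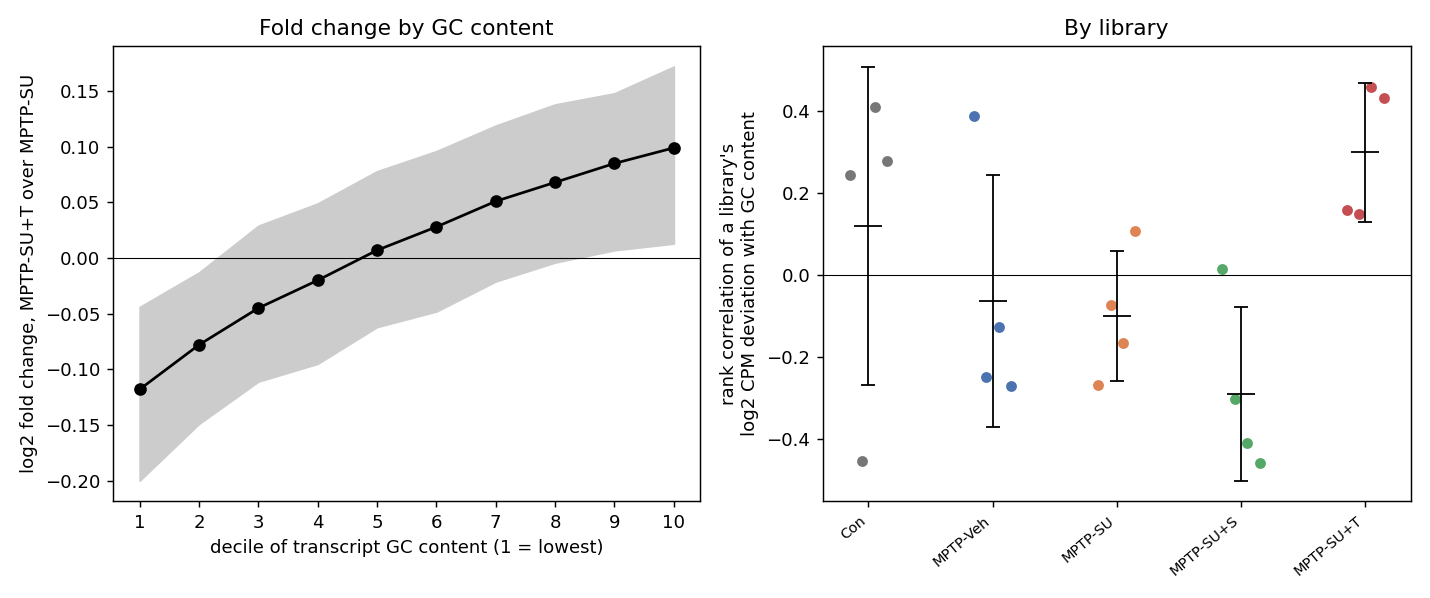
Left, median log2 fold change of MPTP-SU+T over MPTP-SU (points) with the interquartile range (band) by decile of transcript GC content, from −0.12 in decile 1 to 0.10 in decile 10. Right, rank correlation of each library's log2 CPM deviation with GC content in the 5 spinal cord groups (points) with the mean and SD (n = 4), where MPTP-SU+T libraries lie at 0.148 to 0.459.

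Leptomeningeal fibroblasts are the cells of the membranes around the cord. Of 23 of their markers tested, 12 were higher (52.2%, beside 6.07% of all tested genes) and 0 were lower at an unadjusted p-value below 0.05, and the smallest adjusted p-value of the list was 0.119 in edgeR. By DESeq2, Ptgds passed (adjusted p = 0.0188). The median log2 fold change was 0.43. Ptgds, which encodes a prostaglandin D2 synthase, was at 552, 682, 498 and 615 CPM against 328, 316, 458 and 410 CPM (log2 fold change 0.64 ± 0.13 SE, adjusted p = 0.119). Fmod, a collagen-binding proteoglycan, was at 38.4, 76.2, 55.8 and 76.2 CPM against 33.5, 24.5, 37.6 and 37.3 CPM (0.90 ± 0.21 SE, adjusted p = 0.143). For both genes the groups did not overlap, although the lowest inhibitor library and the highest SUEHP library for Fmod were close.

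The transporters Slc6a13 (log2 fold change 0.69 ± 0.21 SE), Slc22a6 (1.35 ± 0.42 SE) and Slc13a4 (1.10 ± 0.31 SE) and the growth factor Igf2 (0.65 ± 0.21 SE) had adjusted p-values of 0.185 to 0.228. Members of the list shared by fibroblasts in general did not follow, with the collagen gene Col1a1 at 0.06 ± 0.26 (SE) and the proteoglycan gene Dcn at 0.00 ± 0.25 (SE). Of the 23 members, 20 had log2 fold changes above 0 and 3 below it, the lowest at −0.45. Summed over the list, MPTP-SU+T libraries held 1020, 1500, 1110 and 1240 CPM and MPTP-SU libraries 814, 858, 1130 and 866 CPM, and the groups overlapped through MPTP-SU replicate 3. The median difference of MPTP-SU+T from MPTP-Veh was 0.11 and that of MPTP-SU from MPTP-Veh was −0.36, with the shared libraries as above. In bulk samples, fewer cells of a type and less RNA per cell cannot be told apart. Aebp1, an extracellular matrix gene outside the list, was at 64.4, 96.1, 79.9 and 89.6 CPM against 48.2, 45.6, 58.0 and 54.7 CPM (0.68 ± 0.15 SE, adjusted p = 0.119).

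Genes of afferent peptides and of cholinergic neurons form a pair of lists that share Calca. Of 28 neuropeptide genes, 4 were lower (14.3%, beside 6.01% of all tested genes) and 1 was higher at an unadjusted p-value below 0.05 (median log2 fold change −0.11), and Calca alone passed the adjusted threshold. Tac1, the precursor of substance P, was at 19.7, 15.2, 15.5 and 17.8 CPM against 22.1, 22.3, 19.7 and 19.7 CPM (−0.30 ± 0.08 SE, adjusted p = 0.174). Calcb (−0.44 ± 0.17 SE) and Adcyap1, which encodes PACAP (−0.18 ± 0.07 SE), were also lower, and Oprl1, the nociceptin receptor, was higher (0.16 ± 0.06 SE). Among 15 motor and cholinergic markers, 4 were lower (26.7%), Calca included, and 0 were higher at the same p-value. Chodl, a marker of fast motor neurons, differed by −0.30 ± 0.08 (SE, adjusted p = 0.174). Slc5a7, the choline transporter, was at 65.9, 86.0, 69.1 and 83.0 CPM against 93.1, 86.3, 103 and 102 CPM (−0.33 ± 0.11 SE, adjusted p = 0.235). Chat (−0.05 ± 0.08 SE) and Slc18a3 (−0.08 ± 0.08 SE), which define these neurons, had 95% intervals within 1.5-fold. Of 9 dorsal root ganglion markers tested, 2 were lower (22.2%), Calca and the sodium channel gene Scn9a (−0.38 ± 0.14 SE). The summed level of those 9 markers was 375 to 407 CPM against 377 to 432 CPM.

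Inhibition in the cord works through GABA and glycine receptors. Of 30 GABA and glycine genes, 7 were lower (23.3%, beside 6.01% of all tested genes) and 2 were higher at an unadjusted p-value below 0.05, the smallest adjusted p-value was 0.174, and all 30 intervals lay within 1.5-fold. Glrb, the β subunit that anchors glycine receptors, was at 252, 296, 260 and 279 CPM against 339, 323, 337 and 323 CPM (−0.28 ± 0.07 SE, adjusted p = 0.174 in edgeR and 0.0271 in DESeq2). The GABA-A subunit gene Gabrg1 differed by −0.30 ± 0.09 (SE, adjusted p = 0.222). Transcripts of Glrb are low in GC content (40.8%), and its log2 fold change was −0.18 (adjusted p = 0.38) with the GC trend removed. Of 31 glutamate genes, 3 were higher (9.68%, beside 6.07% of all tested genes) and 1 was lower (3.23%), led by Grik3 (0.22 ± 0.06 SE) and Grin1 (0.19 ± 0.06 SE). Of 31 calcium channel genes, 5 were higher (16.1%) and 3 were lower (9.68%), and the T-type channels Cacna1g (0.18 ± 0.06 SE) and Cacna1h (0.24 ± 0.08 SE) had the smallest p-values. Transcripts of Grin1 (59.4%), Cacna1g (58.1%) and Cacna1h (60%) are high in GC content. The median log2 fold change of the calcium channel list was 0.06, and −0.002 with the GC trend removed.

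For the receptor itself and its partners, differences were small. Pparg was at 1.15, 1.74, 1.39 and 1.12 CPM in MPTP-SU+T and at 1.31, 1.38, 2.12 and 1.61 CPM in MPTP-SU, with overlapping groups (log2 fold change −0.24 ± 0.23 SE, 95% interval −0.71 to 0.22, adjusted p = 0.681). The level was low, and the interval does not exclude a change of 1.5-fold. Ppara (0.13 ± 0.14 SE, 95% interval −0.17 to 0.42) and Ppard (−0.01 ± 0.08 SE, 95% interval −0.17 to 0.15) were bounded within 1.5-fold. Of 24 receptors, partners and coregulators, 2 were higher (8.33%, beside 6.07% of all tested genes), among them the coactivator Ep300 (0.13 ± 0.07 SE), 0 were lower, and 23 had intervals within 1.5-fold. Pparg was the exception.

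PPAR target genes, which serve fatty acid transport, storage and oxidation, did not move together. Of 40 tested, 1 was higher (2.5%, beside 6.07% of all tested genes) and 3 were lower (7.5%, beside 6.01%) at an unadjusted p-value below 0.05. The smallest adjusted p-value was 0.185, and 34 had intervals within 1.5-fold (median log2 fold change −0.04). Gk, glycerol kinase, had the smallest p-value (−0.28 ± 0.08 SE, adjusted p = 0.185). Angptl4, an inhibitor of lipoprotein lipase and a sensitive PPAR target, was at 1.72, 1.39, 1.94 and 0.560 CPM against 2.06, 2.94, 1.58 and 1.86 CPM (−0.59 ± 0.32 SE, 95% interval −1.26 to 0.08). Pdk4 (−0.08 ± 0.09 SE), Plin2 (0.03 ± 0.09 SE), Cpt1a (−0.03 ± 0.07 SE) and Abca1 (−0.10 ± 0.11 SE) had intervals within 1.5-fold. Fabp4, the adipocyte fatty acid-binding protein, averaged under 1 CPM in both groups (0.705 and 0.746 CPM), and its interval of −1.09 to 1.01 left its change unbounded.

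**Figure D4:**
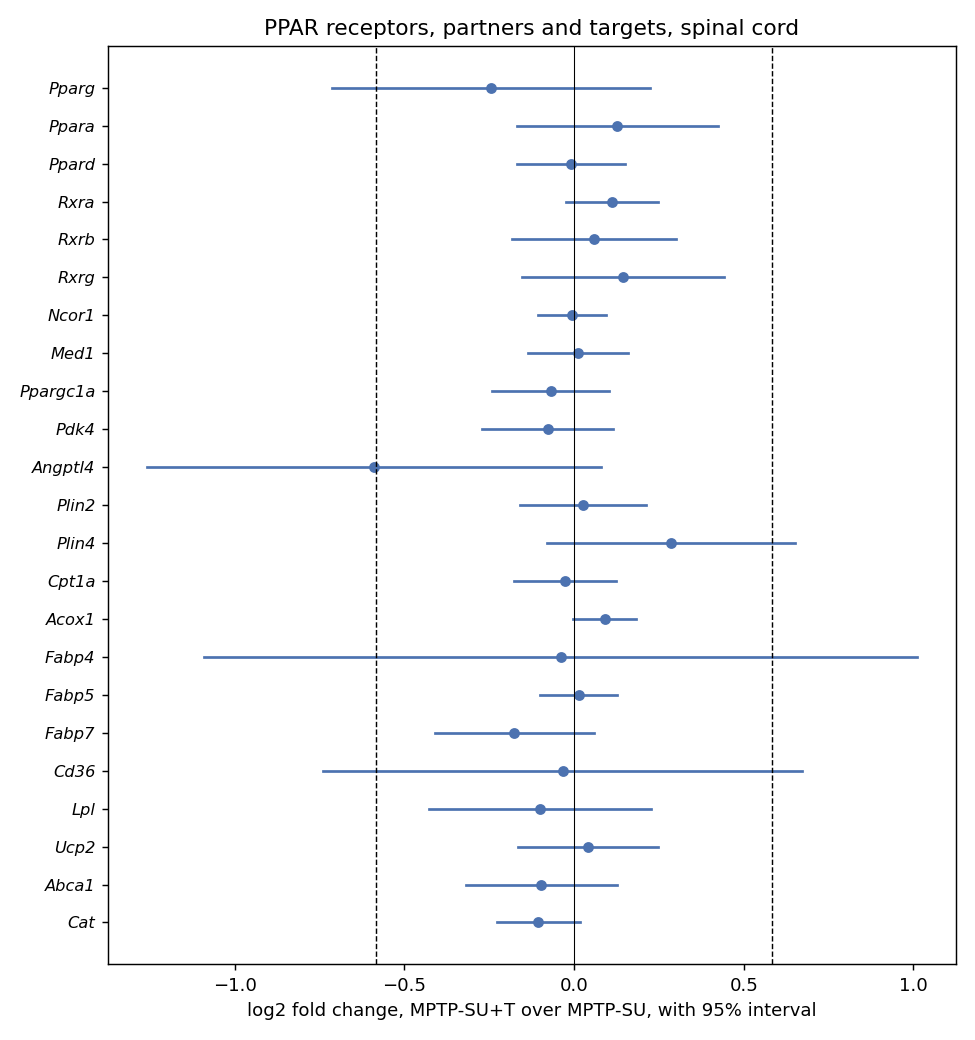
Log2 fold change of MPTP-SU+T over MPTP-SU (points) with 95% intervals (bars) for 23 PPAR receptors, partners and targets, with dashed lines at 1.5-fold. Intervals of Pparg, Angptl4, Fabp4, Cd36 and Plin4 cross a dashed line, and the others lie between the lines.

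Of 15 endocannabinoid genes, 2 were higher (13.3%, beside 6.07% of all tested genes) at an unadjusted p-value below 0.05. They were Faah, the hydrolase of anandamide (27.8, 30.6, 28.4 and 28 CPM against 26.0, 25.4, 25.7 and 25.2 CPM; 0.17 ± 0.07 SE, adjusted p = 0.295), and Pla2g4e, an acyltransferase of anandamide precursor synthesis (0.46 ± 0.17 SE, adjusted p = 0.288). Cnr1, the CB1 receptor, had a log2 fold change of −0.10 ± 0.08 (SE). Cnr2 did not pass the filter, with at most 5 counts in any spinal cord library.

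Inflammatory genes gave few differences. Of 43 inflammatory genes tested, 3 were higher (6.98%, near the 6.07% of all tested genes) and 0 were lower. C4b was at 62.1, 69.0, 69.2 and 76.4 CPM against 50.3, 50.1, 55 and 58.3 CPM (0.37 ± 0.08 SE, adjusted p = 0.0930 in edgeR and 0.00185 in DESeq2). With the GC trend removed, its log2 fold change was 0.28 (adjusted p = 0.209 in edgeR). C3 (0.27 ± 0.12 SE) and Tnfrsf1a (0.19 ± 0.08 SE) followed. Il1b and Tnf, with at most 5 and 4 counts in any spinal cord library, were not tested, so a change in these cytokines was not detectable at this depth. Nlrp3 (−0.36 ± 0.41 SE) was not bounded within 1.5-fold.

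Of 19 microglial markers, 1 was lower (5.26%, near the 6.01% of all tested genes). It was P2ry12, a purinergic receptor of resting microglia (19.7, 24.2, 19.7 and 23.3 CPM against 28.3, 24.2, 29.1 and 28.9 CPM; −0.34 ± 0.10 SE, adjusted p = 0.209). All 19 had intervals within 1.5-fold, Itgam and Aif1 among them (−0.15 ± 0.09 SE and −0.19 ± 0.16 SE). Of 18 astrocyte markers, Agt (0.25 ± 0.07 SE) and Gfap (0.23 ± 0.08 SE, adjusted p = 0.249) were higher (11.1%, beside 6.07% of all tested genes). Aqp4 (−0.22 ± 0.10 SE) was lower (5.56%). Of 20 oligodendrocyte markers, 4 were lower (20%, beside 6.01% of all tested genes) and 0 were higher. They were led by Ugt8a, which makes the galactolipid of myelin (285, 332, 284 and 284 CPM against 373, 376, 383 and 345 CPM; −0.32 ± 0.08 SE, adjusted p = 0.15 in edgeR and 0.0181 in DESeq2). Ugt8a also led the 32 glycosphingolipid genes, of which 2 were higher (6.25%) and 4 were lower (12.5%). Its transcript is low in GC content (38%).

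Neuronal activity genes gave 0 of 20 immediate early genes at an unadjusted p-value below 0.05 in edgeR, and Fos was at 0.07 ± 0.21 (SE, 95% interval −0.37 to 0.50). The mitogen-activated kinase gene Mapk14 was at 0.08 ± 0.06 (SE). Bdnf differed by −0.32 ± 0.12 (SE, adjusted p = 0.287), and of 21 neurotrophin genes, 1 was higher and 1 was lower (4.76% each, beside 6.07% and 6.01% of all tested genes).

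**Figure D5:**
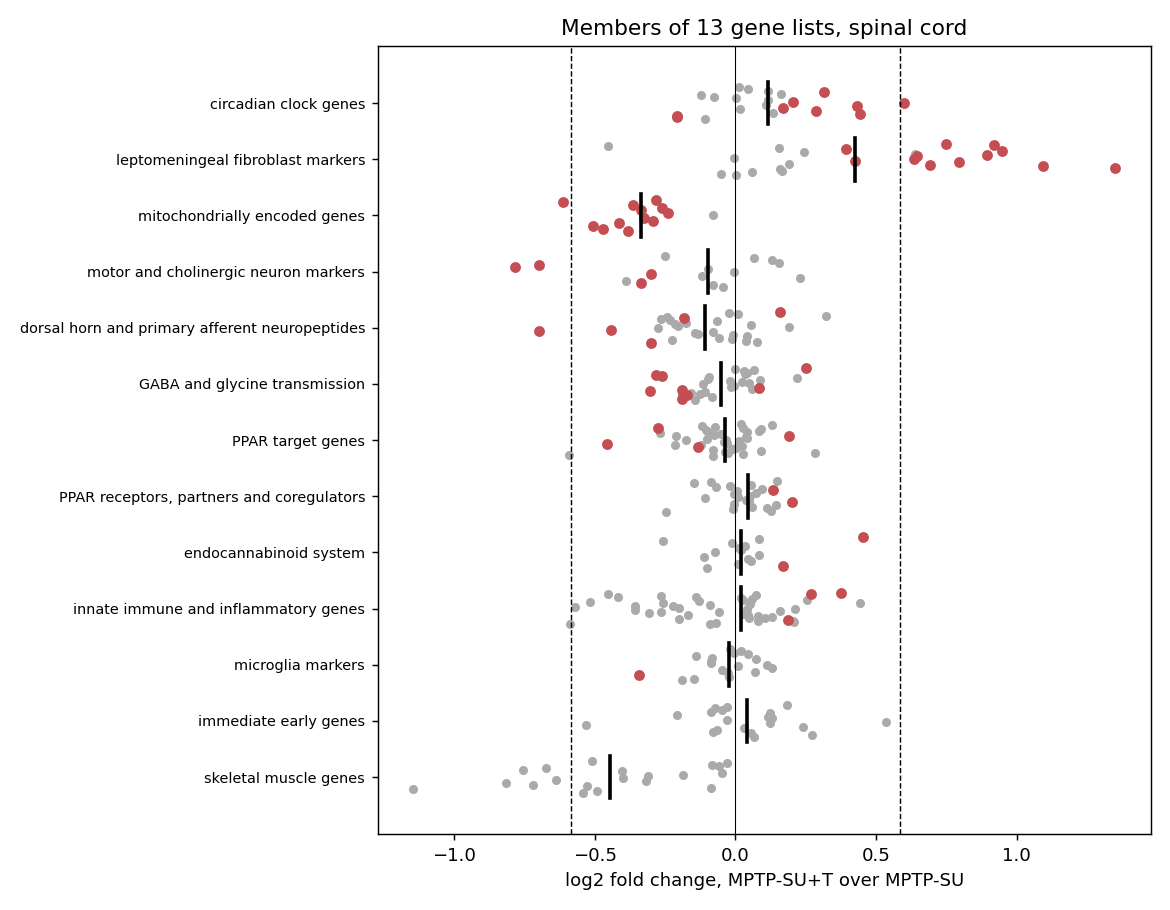
Log2 fold change of MPTP-SU+T over MPTP-SU for the tested members (points) of 13 gene lists, in red where the unadjusted p-value is below 0.05, with the median of each list (black bar) and dashed lines at 1.5-fold. All 13 mitochondrial members lie left of 0, and 20 of 23 leptomeningeal members lie right of 0.

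Lists for neighbouring tissue and for RNA quality are given here beside these results, and their part in them was not tested. Skeletal muscle genes summed to 141, 259, 213 and 69.5 CPM against 230, 279, 216 and 139 CPM, and 0 of 20 passed an unadjusted p-value of 0.05 in edgeR. Their median log2 fold change of −0.45 rested on single libraries, with −0.06 without MPTP-SU+T replicate 4, −0.89 without MPTP-SU+T replicate 2 and −0.27 without MPTP-SU replicate 2. Spinal root and Schwann cell markers summed to 8930 to 10100 CPM against 10200 to 11400 CPM. Of these 17, 1 was higher (5.88%, beside 6.07% of all tested genes) and 2 were lower (11.8%, beside 6.01%). Blood cell genes (1 of 15 lower, 6.67%), fat tissue genes (0 of 7) and ependymal cilia genes (0 of 18) overlapped between the groups in summed level. Blood vessel genes gave 2 higher and 2 lower of 20 (10% each), and glucocorticoid-responsive genes 2 higher of 20 (10%). Xenobiotic response genes gave 1 higher and 1 lower of 19 (5.26% each), and nuclear long noncoding RNAs 2 higher (16.7%) and 1 lower (8.33%) of 12. Of 22 Hox genes, 2 were lower (9.09%), Hoxc10 (74.3, 75.2, 79.0 and 80.9 CPM against 88.9, 92.5, 85.5 and 88.0 CPM; −0.20 ± 0.05 SE, adjusted p = 0.143) and Hoxa9 (−0.14 ± 0.06 SE). Both belong to the posterior Hox groups, and the median of the list was 0.02.

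Among genes beyond 1.5-fold without overlap, 28 were higher and 26 were lower at a mean of at least 1 CPM. Fam220a had 4, 0, 4 and 4 counts in MPTP-SU+T and 280, 206, 321 and 240 counts in MPTP-SU, and Xntrpc, a readthrough transcript that shares sequence with Trpc2, had 38, 26, 22 and 49 counts against 0 in each MPTP-SU library. Both switched between near 0 and high counts within other groups, with 293, 15, 5 and 6 counts of Fam220a in MPTP-Veh and 41, 0, 8 and 26 counts of Xntrpc there, so no fold is given. Gm2026 (−1.88 ± 0.44 SE), Nat1 (−0.92 ± 0.21 SE), 9630013A20Rik (−0.94 ± 0.20 SE) and the urotensin gene Uts2 (−0.81 ± 0.21 SE) were lower, with adjusted p-values of 0.119 to 0.174. Trabd2b, an antagonist of Wnt ligands, was higher (0.96 ± 0.25 SE, adjusted p = 0.174).

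Whether the inhibitor acted alike in the midbrain was examined in the same pair of groups. There, 0 DEGs were found by edgeR, 283 of 16629 genes lay below an unadjusted p-value of 0.05 (1.70%), and DESeq2 called 1. The midbrain libraries varied more, with a common dispersion of 0.0512 over its 20 libraries against 0.0071 over the 20 of the cord. The midbrain fit included MPTP-Veh replicate 4, which stood apart and is not among the libraries compared, so the value is not the spread of those alone. Dbp in the midbrain was at 49.9, 53.8, 58.3 and 64.0 CPM with the inhibitor and at 36.7, 47.3, 48.9 and 44.8 CPM without it (log2 fold change 0.35 ± 0.17 SE). Nr1d1 (0.22 ± 0.14 SE) and Per1 (0.25 ± 0.21 SE) had overlapping groups there. ND2 (0.01 ± 0.41 SE) and ATP8 (0.03 ± 0.49 SE) overlapped between the groups as well.

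The difference of the inhibitor effect between the tissues was tested as an interaction over the 16 libraries. It gave 0 DEGs in edgeR (smallest adjusted p = 1, 611 of 16674 genes or 3.66% below an unadjusted p-value of 0.05), 1 with no low-count filter and 2 in DESeq2. The log2 difference, cord minus midbrain, was 0.26 ± 0.13 (SE) for Dbp, 0.59 ± 0.19 (SE) for Scara3 and −0.64 ± 0.27 (SE) for Calca, each with an adjusted p-value of 1. Cord and midbrain libraries of the same group and number may come from the same mouse, which the labels do not say. Their deviations correlated at 0.012 to 0.342, beside −0.187 to 0.081 for different numbers, and the fit above left such pairing out. With such pairs as a replicate block, an alternative chosen after seeing the data, 8 DEGs were found, and they were Gm26917, Rn7sk, Rmrp, Rny1, Lars2, Gm25939, Gm22513 and Fam220a. Dbp, Scara3, Calca, Kif21b, ATP8 and ND2 each had an adjusted p-value of 0.997 in that fit.

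Gm26917 held 638849 to 2113630 counts in the 4 MPTP-SU midbrain libraries and 1045460 in MPTP-SU+T replicate 1 of the midbrain, but 124038 to 165143 in the other 3. Rn7sk, a small nuclear RNA, was at 2617 to 7419 counts in the former 5 libraries and at 295 to 560 in the latter 3. The midbrain groups thus differed in these RNAs, and their part in the midbrain and interaction values was not tested.

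The count of DEGs rested on single libraries. Leaving out MPTP-SU replicate 1, 2 or 3 or MPTP-SU+T replicate 3 gave 0 DEGs, leaving out MPTP-SU+T replicate 2 gave 1, leaving out MPTP-SU+T replicate 1 gave 2, leaving out MPTP-SU+T replicate 4 gave 2 (ATP8 and Gm2026, which was not called with all libraries), and leaving out MPTP-SU replicate 4 gave 3. Directions of the 6 genes held in all 8 cases. An adjusted p-value below 0.05 was kept by Dbp in 4 of 8 (0.55 to 0.64, adjusted p = 0.017 to 0.106), by Scara3 and ND2 in 2, by Calca and ATP8 in 1 (adjusted p up to 0.18) and by Kif21b in 0. Leaving out the libraries high in Gm26917 (MPTP-SU+T replicate 1 and Con replicates 1 and 2), an alternative added after seeing the data, gave 30 DEGs, 14 higher and 16 lower. Dbp (0.60, adjusted p = 0.0102), Scara3 (0.92), Calca (−0.74) and ATP8 (−0.61) were among them, as were Ptgds (0.66, adjusted p = 0.0288), Fmod (1.06) and Aebp1 (0.77), while Nr1d1 and Per1 (adjusted p = 0.0286 each) passed without reaching 1.5-fold.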

How the data were processed

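Poly(A) RNA from the spinal cord and midbrain of 5 groups was sequenced in 40 libraries, 4 per group and tissue. Per the labels and the study's methods, the authors used fastp, STAR and Salmon (GATK is also named, with no role) with build GRCm39. The deposited values are expected counts of Salmon for each gene symbol, which the authors gave as whole numbers. Nothing says that libraries came from separate mice, so p-values measure the spread between these libraries, which may be technical. The methods name an iNtRON kit for the RNA and the labels a TaKaRa reagent.

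Counts were analysed in R 4.3.3 with edgeR 4.0.16 (filterByExpr, TMM, quasi-likelihood F test with a group term over the 20 libraries of a tissue, Benjamini-Hochberg adjustment). SE is the absolute log2 fold change divided by the root of F. Exact permutation tests were two-sided. Depth was 14642808 to 16615378 counts in the cord, and Wilson intervals cover counting error only. GC content came from the longest GENCODE vM21 transcript (the 13 mitochondrial genes matched through their mt- names), and no coordinates of the counts were used. Alternatives included DESeq2 1.42.0 and limma-voom (limma 3.58.1). The fit was tested on simulated data. The compared groups and the 29 gene lists were chosen with earlier results of these data known, and no list was tested as a set. Named genes were the DEGs, the 10 higher and 10 lower genes with the smallest p-values beyond 1.5-fold without overlap at a mean of at least 1 CPM, 38 genes of the PPAR, endocannabinoid and pain questions (35 tested), and the 3 members of each list with the smallest p-values. Some of these are not reported here, and the further members and reference genes named were chosen after their values were seen.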

Additional observations from a re-analysis of the deposited data

Results flagged for a closer look

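In 7 of 127 sets of 4 values checked with Dixon's test, 1 library lay far from the other 3, and chance alone flags about 1 set in 20. Gm26917 was at 121000 CPM (11% of counts) in MPTP-SU+T replicate 1 and at 6680 to 8190 CPM (0.693% to 0.843%) in the other 3 libraries. Ugt8a was at 332 CPM in MPTP-SU+T replicate 2 and at 284 to 285 CPM in the others. In MPTP-SU, Slc13a4 was at 7.65 CPM in replicate 3 (3.63 to 4.18 CPM in the others), P2ry12 was at 24.2 CPM in replicate 2 (28.3 to 29.1 CPM), and the summed leptomeningeal markers were at 1130 CPM in replicate 3 (814 to 866 CPM). Glrb was at 300 CPM in MPTP-Veh replicate 1 (339 to 347 CPM in the others). No gene passed the adjusted threshold for an interaction of inhibitor and tissue in edgeR without a block.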

How the results depend on the processing

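The 4 DEGs of MPTP-SU+T against MPTP-SU became 27 with no low-count filter, 13 in the 8 libraries alone, 8 at an adjusted p below 0.1 without the fold, 213 at an unadjusted p below 0.05 with the fold, and 0 to 3 with a library left out. Alternatives chosen after seeing the data gave 0 (GC and length trend removed, with Dbp alone below an adjusted p of 0.05 and 1366 genes below an unadjusted one), 30 (libraries high in Gm26917 left out) and 2 (mitochondrial genes and Gm26917 left out of the table). Genes called by the adjusted p-value alone were 6 in edgeR and 85 in DESeq2. Against MPTP-Veh, 0 DEGs became 3 with no filter, 1 by the adjusted p alone, 164 by the unadjusted p with the fold, and 0 to 1 with a library left out. In the midbrain, 0 became 1 with DESeq2 and 167 by the unadjusted p with the fold. The interaction gave 2 with DESeq2, 1 with no filter, 309 by the unadjusted p with the fold, and 0 to 1 with a library left out. The causes were not tested.

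Over 36 named genes and up to 19 settings, 576 of the single-gene results kept direction and side of the threshold, 50 lost the call, 36 gained it and 6 changed sign. The main fit called only 6 of these genes, so most of the 576 were of genes called in neither fit. Ppard gave 0.002 with library size alone, 0.017 without the libraries high in Gm26917 and −0.069 to 0.016 with a library left out, and Gm26917 gave −0.40 without those libraries and −0.40 to 2.23 with a library left out. Replicate numbers are shared between groups, and no label says that a number marks a shared batch or day. Deviations of same-numbered cord libraries of MPTP-SU and MPTP-SU+T correlated at 0.039, 0.002, 0.005 and 0.127, so the numbers were not taken as pairs. Same-numbered cord and midbrain libraries of a group correlated at 0.012 to 0.342, with 0.342 in MPTP-SU+T replicate 1. Differently numbered ones of a group correlated at −0.187 to 0.081. A link between same-numbered libraries of the 2 tissues is therefore possible, and only as an alternative were they taken as pairs. With the replicate block, 5 DEGs were found against MPTP-SU, 2 against MPTP-Veh and 0 in the midbrain and the interaction, and the block of cord and midbrain within a group gave 8 in the interaction. Pparg, Fabp4, Nlrp3 and the cytokines were limited by low counts.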

Other observations

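A CB1 antagonist, SR141714A in the labels, was also added to SUEHP in 4 spinal cord libraries, and the comparison of that group with MPTP-SU shares the MPTP-SU libraries with the comparison above. Dbp in MPTP-SU+S was at 41.9, 37.4, 41.0 and 36.7 CPM, a log2 fold change over MPTP-SU of 0.48 (adjusted p = 0.359), beside 0.60 for T0070907. Nr1d1 was at 77.1, 90.9, 91.8 and 80.2 CPM (0.35, adjusted p = 0.770, beside 0.43). Scara3 was at 9.16, 10.3, 7.22 and 8.33 CPM (0.58, adjusted p = 0.770, beside 0.84). ND2 and ATP8 had log2 fold changes over MPTP-SU of 0.08 and 0.09 for SR141714A and of −0.47 and −0.61 for T0070907. In MPTP-SU+S, ND2 was at 9210 to 11900 CPM and ATP8 at 2950 to 3990 CPM. These ranges overlap MPTP-SU (9780 to 10800 CPM and 3100 to 3660 CPM), so the sign of the SR141714A values is not settled. The difference between the antagonists was not tested.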
